A study of Mus musculus with 20 samples.

Results

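The growth hormone and IGF axis of the liver was followed over 6 groups of mice through 10 genes: the receptor gene Ghr, the signal transducers Stat5a and Stat5b, the hormone gene Igf1, its carrier Igfals, the binding proteins Igfbp1, Igfbp2 and Igfbp4, and the feedback inhibitors Socs2 and Cish. The members were named as a list of symbols and looked up among the 46078 genes counted, and all 10 were found. All 10 also passed the filter on low counts, which left 14759 genes for testing. The livers came from male mice at least 9 weeks old on a mixed 129 and C57BL/6 background that carried the Cse knockout allele in both copies of the gene (Cse-/-) or in 1 copy (Cse+/-). Cse, listed as Cth, encodes cystathionine γ-lyase, the enzyme that makes cysteine from cystathionine, so Cse-/- mice need cysteine from food. All mice ate a calorie-restricted (CR) control diet and were then shifted for 2 days to a CR diet that was complete (control), lacked cysteine (no-Cys) or lacked the essential amino acid tryptophan (no-Trp). The groups were Cse+/- control (n = 2), Cse+/- no-Cys (n = 4), Cse+/- no-Trp (n = 3), Cse-/- no-Cys (n = 4), Cse-/- no-Trp (n = 3) and Cse-/- no-Trp with BSO (n = 4). BSO is l-buthionine sulfoximine, an inhibitor of glutathione synthesis. The sample labels name the control genotype wild type, whereas the study's list of mice, which ties each column of counts to a mouse, names it heterozygous, and that name is used here. Livers carry the mouse numbers of that list (av01 to av22). No Cse-/- control group was analysed here, so the genotypes could be compared only when cysteine or tryptophan was missing.

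Growth hormone from the pituitary binds its receptor on hepatocytes, and the kinase JAK2 then phosphorylates STAT5, which enters the nucleus and turns on target genes. Among the targets are Igf1, from which the liver makes most of the IGF-1 in blood, Igfals, which holds IGF-1 in a long-lived circulating complex, and Socs2 and Cish, whose products damp the receptor's signal. IGF binding proteins hold IGF-1 away from its receptor, and in fasted or protein-restricted animals the liver is known to make less IGF-1 and more IGFBP-1.

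Counts on genes ranged from 11785740 to 57986121 per library, with a median of 15252745 over 20 libraries. Levels are given as CPM, counts relative to library size after scaling with TMM factors. As a check of the genotype, Cth was at 6.37 to 14.4 CPM in the Cse-/- livers and at 88.4 to 332 CPM in the Cse+/- livers, without overlap. The hepatocyte marker Alb, the gene of serum albumin, was between 25507 and 87978 CPM in every liver. The summed level of 6 hepatocyte markers was lower in Cse-/- no-Cys livers (38902 to 66240.4 CPM) than in Cse+/- no-Cys livers (82789 to 106601 CPM), and none of the 6 was at 0. Alb made up most of this sum, with a mean of 32673 CPM in Cse-/- and 78315 CPM in Cse+/- no-Cys livers. Of these 6, Alb, Ttr and Apoa1 were called lower there, Cps1 was called higher, and Hnf4a and Asgr1 were not called. Of all genes tested, edgeR called 23.8% in this comparison, 12.2% lower and 11.6% higher. All 3 red blood cell markers were called lower in the same comparison, with a summed level of 59.4 to 101 CPM against 172 to 363 CPM. Among the other marker lists of that comparison, 0 of 5 macrophage genes, 0 of 4 adipocyte genes and 0 of 1 exocrine pancreas gene were called by edgeR or DESeq2, with 1 gene of each list at an unadjusted p under 0.05 in edgeR, where 36.2% of all genes were. By edgeR, a single gene each was called lower among 3 lymphocyte, 5 stellate and 4 cholangiocyte genes, and 1 of 5 endothelial genes was called higher. DESeq2 called 2 of the 5 stellate genes, against 25% of all genes.

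Some markers were also called between the diets. In Cse-/- mice, edgeR called Ttr and Apoa1 of the 6 hepatocyte markers lower on the no-Cys than on the no-Trp diet. Of the 3 red blood cell markers it called Alas2 lower. Of all genes, 10.4% were called there and 5.35% were called lower. The summed hepatocyte markers ran from 38902 to 66240.4 CPM against 62161 to 68533 CPM. The upper end of the no-Cys range was av08, with 49494 CPM of Alb against 25507 to 28858 CPM in the rest of its group. Ghr (289 CPM) and Igfals (96.7 CPM) were also highest in av08 within that group. In Cse+/- mice, edgeR called the endothelial genes Pecam1 and Lyve1 lower on the no-Cys than on the no-Trp diet. That is 2 of 5, against 8.04% of all genes called and 3.41% called lower. The 5 genes had a summed level of 139.5 to 174 CPM against 142 to 169.9 CPM. The summed hepatocyte markers ran from 82789 to 106601 CPM against 72720 to 82690 CPM, without overlap. Of these 6, edgeR called 0 and DESeq2 1, where DESeq2 called 10.1% of all genes. In edgeR 3 of the 6 had an unadjusted p under 0.05, against 24.4% of all genes. Against the control diet, edgeR called Krt7 of the 4 cholangiocyte markers lower on the no-Cys diet in Cse+/- mice, where it called 2.18% of all genes. The summed level of these markers was 7.39 to 15.3 CPM against 11.1 to 14.0 CPM. Between genotypes on the no-Trp diet, edgeR and DESeq2 called none of the markers. Summed hepatocyte markers were lower in Cse-/- (62161 to 68533 CPM) than in Cse+/- no-Trp livers (72720 to 82690 CPM), without overlap. So were the summed red blood cell (101 to 155 against 176 to 211 CPM) and cholangiocyte markers (5.55 to 8.89 against 9.03 to 11.1 CPM). The sums of the other lists overlapped. A pair of no-Trp livers, av17 (Cse+/-) and av14 (Cse-/-), stood apart by adipocyte transcripts. Adipoq, the gene of adiponectin, was at 2.91 CPM in av17 and 1.08 CPM in av14 and at 0 to 0.156 CPM in the other livers. Fabp4, a fatty acid carrier of fat cells, was at 32.3 and 32.0 CPM against 7.38 to 14.1 CPM. Plin1 was at 0.782 and 0.906 CPM against 0 to 0.0906 CPM. Cidec did not set them apart, at 14.1 CPM in av17 and 9.97 CPM in av14, against 17.8 CPM in av15 and 15.5 CPM in av05. The summed level of the 4 adipocyte markers was 22.7 to 50.1 CPM in Cse+/- no-Trp and 18.7 to 44.0 CPM in Cse-/- no-Trp livers, against 13.7 to 19.0 and 14.5 to 22.9 CPM on the no-Cys diet. Between these diets edgeR and DESeq2 called 0 of the 4 adipocyte genes in either genotype. In edgeR, 2 had an unadjusted p under 0.05 in Cse+/- mice (24.4% of all genes) and 3 in Cse-/- mice (26.5% of all genes). Calls that used a no-Trp group were also tested without av14, av17 or both, an alternative chosen after seeing the data. The part of these shifts in the values below was not tested, and in bulk liver fewer cells of a type cannot be told apart from less RNA per cell.

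Per kilobase of exon, the binding proteins were the most abundant members. Over all 20 livers the mean level was 577 CPM per kb for Igfbp4, 567 for Igfbp2 and 188 for Igfbp1. Igf1 followed with 63.9 CPM per kb, Ghr with 43.0 and Igfals with 35.8. Stat5b, Socs2, Cish and Stat5a were the least abundant at 8.51, 5.83, 2.37 and 1.47 CPM per kb. The order depends in part on the length of all annotated exons. In plain CPM, Igf1 (633) and Ghr (389) stood above Igfbp1 (287), and Socs2 (55.6) above Stat5b (47.1). The members also differed in how far their CPM spread over livers. The highest liver exceeded the lowest by 15.6-fold for Cish, 10.8-fold for Igfbp1 and 8.52-fold for Socs2. That ratio was 3.41 for Ghr, 3.01 for Igfals, 2.46 for Igf1, 2.21 for Igfbp2 and 2.07 for Stat5a. It was smallest for Stat5b (1.66) and Igfbp4 (1.35).

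A gene was called where its edgeR adjusted p was under 0.05, with all 20 livers in 1 fit and the adjustment over all 14759 genes. On the no-Cys diet, Cse-/- livers held less Ghr, Igf1, Igfals and Igfbp2 mRNA than Cse+/- livers and more Igfbp1 mRNA. That is 5 of 10 members called, against 23.8% of all genes tested. Of the 5, 1 was higher (11.6% of all genes) and 4 were lower (12.2% of all genes), and no called member overlapped between the groups, as was so for 77.1% of all genes called. The median log2 fold change was -0.23 over the members and -0.01 over all genes.

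On the no-Trp diet, Igf1, Socs2 and Cish were lower in Cse-/- than in Cse+/- livers, 3 of 10 against 2.64% of all genes called and 1.24% called lower. Here the median log2 fold change was -0.17 over the members and 0.00 over all genes. Within Cse-/- mice, Ghr, Stat5a and Igfals were lower on the no-Cys than on the no-Trp diet, 3 of 10 against 10.4% of all genes called and 5.35% called lower. Within Cse+/- mice, Igfbp4, Socs2 and Cish were lower on the no-Cys than on the no-Trp diet, 3 of 10 against 8.04% of all genes called and 3.41% called lower. Against the pair of Cse+/- control livers, Igf1, Igfbp1 and Cish were lower on the no-Cys diet, 3 of 10 against 2.18% of all genes called and 1.19% called lower. Members called in these 4 comparisons did not overlap between the groups compared, which held for 97.4%, 86.2%, 91.1% and 99.7% of all genes called, in the order given. Without av14 and av17, Igf1 and Cish remained called between genotypes on the no-Trp diet, Ghr and Igfals between the diets in Cse-/- mice and Socs2 and Cish between them in Cse+/- mice, whereas the calls of Socs2 between genotypes (edgeR adjusted p = 0.0742), Stat5a (edgeR adjusted p = 0.1103) and Igfbp4 (edgeR adjusted p = 0.123) were lost. Several of the comparisons share livers, so their counts are not independent of each other.

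No member was called between the no-Trp and control diets in Cse+/- mice, where edgeR called 0.0474% of all genes. Igfbp1 alone had an unadjusted p under 0.05 there, as did 9.29% of all genes. DESeq2 called 0 members and 0.407% of all genes. Adding BSO to the no-Trp diet in Cse-/- mice also gave 0 called members, against 0.793% of all genes called. DESeq2 called 0 as well (2.41% of all genes), and the unadjusted p of 2 members, Ghr and Stat5a, was under 0.05 (13% of all genes). Between the no-Trp diet with BSO and the no-Cys diet in Cse-/- mice, edgeR called 0 members and 2.75% of all genes. DESeq2 called 2 members and 5.95% of all genes, and 3 members (Ghr, Igfals and Igfbp2) were under 0.05 in edgeR before adjustment, against 20% of all genes. The hepatocyte markers Ttr and Apoa1, 2 of 6, and the cholangiocyte marker Krt7, 1 of 4, were called higher with BSO in that comparison by edgeR, and the summed hepatocyte markers ran from 58809 to 74387 CPM against 38902 to 66240.4 CPM. Without av14 and av17, edgeR again called 0 members between the no-Trp and control diets and 0 on adding BSO. The difference of the genotype effect between no-Cys and no-Trp, tested as an interaction, was called for 2 of 10 members, against 4.36% of all genes. Ghr was called with a negative interaction (2.69% of all genes) and Cish with a positive one (1.67% of all genes), and both calls held without av14 and av17. Among the markers, edgeR called a negative interaction for the hepatocyte genes Alb and Ttr, 2 of 6, and the red blood cell gene Alas2, 1 of 3, and a positive one for the endothelial gene Lyve1, 1 of 5. The part of these markers in the members' values was not tested.

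**Figure D1:**
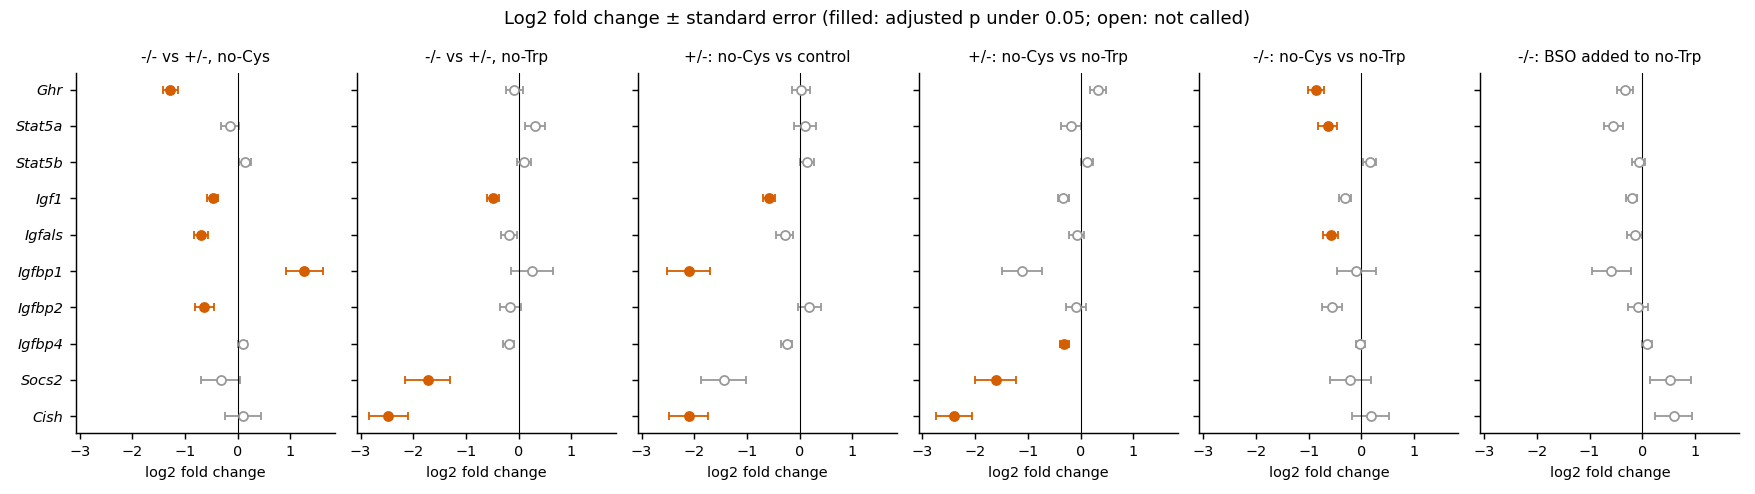
Log2 fold change of each member with its standard error in 6 comparisons, named by Cse genotype and diet above each panel, with filled points for an edgeR adjusted p under 0.05. Between genotypes, the filled points are Ghr, Igf1, Igfals and Igfbp2 left of 0 and Igfbp1 right of 0 on the no-Cys diet, and Igf1, Socs2 and Cish left of 0 on the no-Trp diet.

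Ghr (ENSMUSG00000055737, chromosome 15, minus strand, 3317760 to 3583492 on GRCm38, as are all gene positions here) encodes the growth hormone receptor. It was at 408, 606, 571 and 545 CPM in the Cse+/- no-Cys livers. The 4 Cse-/- no-Cys livers held 207, 202, 178 and 289 CPM of Ghr, all below the lowest Cse+/- no-Cys liver. The means of the 2 groups were 532 ± 86.6 and 219 ± 48.5 CPM (SD, n = 4 each). Ghr fell by 1.28 on the log2 scale in this comparison (SE 0.14, edgeR adjusted p = 6.69e-06), which is 2.43-fold.

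On the no-Trp diet Ghr was at 418, 443 and 408 CPM in Cse+/- and at 419, 394 and 383 CPM in Cse-/- livers. The ranges overlapped, and the log2 fold change of -0.09 (SE 0.16) was not called (edgeR adjusted p = 0.824). The genotype effect on the no-Cys diet exceeded that on the no-Trp diet, with an interaction of -1.19 (SE 0.22, edgeR adjusted p = 0.00436). Within Cse-/- mice, Ghr was lower on the no-Cys than on the no-Trp diet by 1.82-fold (log2 fold change -0.86, SE 0.15, edgeR adjusted p = 0.00175), and every no-Cys liver was below every no-Trp liver. Cse-/- livers given BSO with the no-Trp diet lay between these groups at 265, 388, 307 and 305 CPM and overlapped with both. Their difference from Cse-/- no-Trp livers was -0.33 (SE 0.15, edgeR adjusted p = 0.352) and from Cse-/- no-Cys livers 0.53 (SE 0.14, edgeR adjusted p = 0.0507). DESeq2 put the latter past the threshold (DESeq2 adjusted p = 0.0123), as did leaving out the Cse-/- no-Cys liver with the highest Ghr, av08 (edgeR adjusted p = 0.00336). The control livers held 540.1 and 506 CPM. Ordered by mean, Ghr ran from Cse+/- no-Cys through Cse+/- control (523 CPM), Cse+/- no-Trp (423), Cse-/- no-Trp (399) and Cse-/- no-Trp with BSO (316) to Cse-/- no-Cys. Of these neighbours, only Cse+/- control and Cse+/- no-Trp did not overlap, and their difference was not called (log2 fold change -0.31, SE 0.18, edgeR adjusted p = 0.639). Between the same groups, 27.4% of all genes tested did not overlap.

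Stat5b (ENSMUSG00000020919, chromosome 11, minus strand, 100780731 to 100850724) and Stat5a (ENSMUSG00000004043, chromosome 11, plus strand, 100859351 to 100885169) are neighbouring genes for the transcription factors that the receptor activates. Their transcripts share sequence, since 9.05% of the 61-base words of Stat5b and 6.86% of those of Stat5a occur in other genes, chiefly in each other, so a part of their reads cannot be assigned. Stat5b was called by edgeR in 0 of the 9 comparisons, with no unadjusted p under 0.05 and no call by DESeq2, and lay between 35.9 and 59.4 CPM over all 20 livers. Its group means ran from 43.5 ± 10.8 CPM (SD, n = 2) in Cse+/- control to 52.7 ± 4.86 CPM (SD, n = 4) in Cse-/- no-Cys livers, and all neighbouring groups overlapped.

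Stat5a was highest in Cse-/- no-Trp livers, at 15.0, 14.5 and 12.7 CPM. The Cse-/- no-Cys livers held 9.80, 9.02, 8.81 and 8.49 CPM, all below them. Stat5a was thus lower on the no-Cys diet in Cse-/- mice by 1.56-fold (log2 fold change -0.64, SE 0.18, edgeR adjusted p = 0.0308). This call was at the edge of the threshold: leaving out any 1 of 6 of the 7 livers compared ended it, with edgeR adjusted p of 0.0510 to 0.114, and only leaving out av16 kept it. With BSO the 4 Cse-/- no-Trp livers held 11.5, 9.04, 9.34 and 8.39 CPM of Stat5a, below the no-Trp livers without overlap, but the difference was not called (log2 fold change -0.55, SE 0.18, edgeR adjusted p = 0.160). Of all genes tested, 12.6% did not overlap between these groups. In Cse+/- livers Stat5a ranged from 7.24 to 13.8 CPM over the 3 diets, with overlap between them.

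Igf1 (ENSMUSG00000020053, chromosome 10, plus strand, 87858265 to 87937042) encodes insulin-like growth factor 1, the hormone through which growth hormone acts on much of the body. In Cse+/- no-Cys livers it was at 681, 639, 695 and 594 CPM. Cse-/- no-Cys livers held 465, 446, 510.2 and 453 CPM, without overlap. The means were 652 ± 45.3 and 468 ± 29.1 CPM (SD, n = 4 each), a 1.39-fold lower level in Cse-/- livers (log2 fold change -0.48, SE 0.10, edgeR adjusted p = 0.00185). This call held without any 1 of the 8 livers.

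The genotypes differed by nearly the same amount on the no-Trp diet. Cse+/- no-Trp livers held 787, 815 and 854 CPM of Igf1 and Cse-/- no-Trp livers 655, 563 and 527 CPM, again without overlap. Igf1 was 1.41-fold lower in Cse-/- mice there (log2 fold change -0.49, SE 0.12, edgeR adjusted p = 0.0295). That call was lost without av15, av16, av19 or av20 (edgeR adjusted p of 0.0685 to 0.106) and in a fit of the compared groups alone (edgeR adjusted p = 0.177). The interaction of genotype and diet was 0.02 (SE 0.15, edgeR adjusted p = 0.975).

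Igf1 was highest in the control livers, at 854 and 1097 CPM, and lower in Cse+/- no-Cys livers by 1.50-fold (log2 fold change -0.58, SE 0.12, edgeR adjusted p = 0.0138). Leaving out the control liver av22, which held the 1097 CPM, gave a log2 fold change of -0.39 and ended the call (edgeR adjusted p = 0.423). That fit keeps 1 control liver, which is then assumed to vary like the livers of the other groups. No-Cys livers were also below no-Trp livers without overlap in both genotypes, but neither difference was called by edgeR. Of all genes tested, 19% did not overlap between these diets in Cse+/- and 20% in Cse-/- mice. The log2 fold change of Igf1 was -0.33 in Cse+/- (SE 0.11, edgeR adjusted p = 0.0641) and -0.31 in Cse-/- mice (SE 0.11, edgeR adjusted p = 0.0671). DESeq2 called both, with DESeq2 adjusted p of 0.0273 and 0.0304. BSO left the Cse-/- no-Trp livers at 471, 579, 496 and 478 CPM, which overlapped with the livers without BSO (log2 fold change -0.20, SE 0.11, edgeR adjusted p = 0.447). The group means thus ran from Cse+/- control (975 CPM) through Cse+/- no-Trp (819), Cse+/- no-Cys (652), Cse-/- no-Trp (582) and Cse-/- no-Trp with BSO (506) to Cse-/- no-Cys (468). All 3 Cse+/- means lay above all 3 Cse-/- means, and only Cse+/- no-Trp and Cse+/- no-Cys did not overlap as neighbours. Among 12582 genes with a mean of at least 1 CPM, those whose log2 CPM followed Igf1 most closely over the 20 livers were Serpina4-ps1 (Pearson r 0.903), Ogfrl1 (0.898) and Tmx4 (0.889). These r describe livers that share groups.

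Igfals (ENSMUSG00000046070, chromosome 17, plus strand, 24865997 to 24882010) encodes the acid-labile subunit, which joins IGF-1 and its binding protein in the circulating ternary complex. In 2 of its promoter windows lie the letters TTCNNNGAA, the pattern bound by STAT5, read on either strand (it is its own reverse complement). These stretches are shown because Igfals is a growth hormone target and was lower with Ghr in Cse-/- no-Cys livers. They come from RefSeq on GRCm38.p6, plus strand, with the motif in capitals, site A at chr17:24877600-24877624 (first motif base 236 bases before a transcript start) and site B at chr17:24878165-24878189 (58 bases before another).
Igfals site A: tctataatTTCTCAGAAaagaggct
Igfals site B: gccaggtgTTCCTAGAAgaggccct
Of 32851 promoter windows of the same length in the RefSeq table, 8.3% hold TTCNNNGAA, and 3 of the 15 windows of 9 members do. Socs2 has no window there. A match is a description of the letters and not of binding.

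In Cse+/- no-Cys livers Igfals was at 109, 122, 153 and 114 CPM. Cse-/- no-Cys livers held 73.5, 58.1, 79.2 and 96.7 CPM, all below. Igfals was 1.62-fold lower in Cse-/- mice (log2 fold change -0.70, SE 0.14, edgeR adjusted p = 0.00116), and the call held without any 1 of the 8 livers. On the no-Trp diet Cse+/- livers held 126, 138 and 130.3 CPM and Cse-/- livers 114, 126 and 107 CPM. These groups just missed overlapping and were not called, with a log2 fold change of -0.19 (SE 0.16, edgeR adjusted p = 0.558). Of all genes tested, 19.6% did not overlap between them. The interaction of -0.51 was not called either (SE 0.21, edgeR adjusted p = 0.175), although it passed the threshold without av08 (edgeR adjusted p = 0.0488). Within Cse-/- mice Igfals was 1.50-fold lower on the no-Cys than on the no-Trp diet (log2 fold change -0.59, SE 0.15, edgeR adjusted p = 0.0161), a call that a fit of these groups alone did not make (edgeR adjusted p = 0.0617). With BSO it was at 106, 117, 101 and 92.8 CPM, overlapping with both other Cse-/- groups. The control livers held 129 and 175 CPM, and by mean the groups stood in the same order as for Igf1, with all neighbours overlapping.

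**Figure D2:**
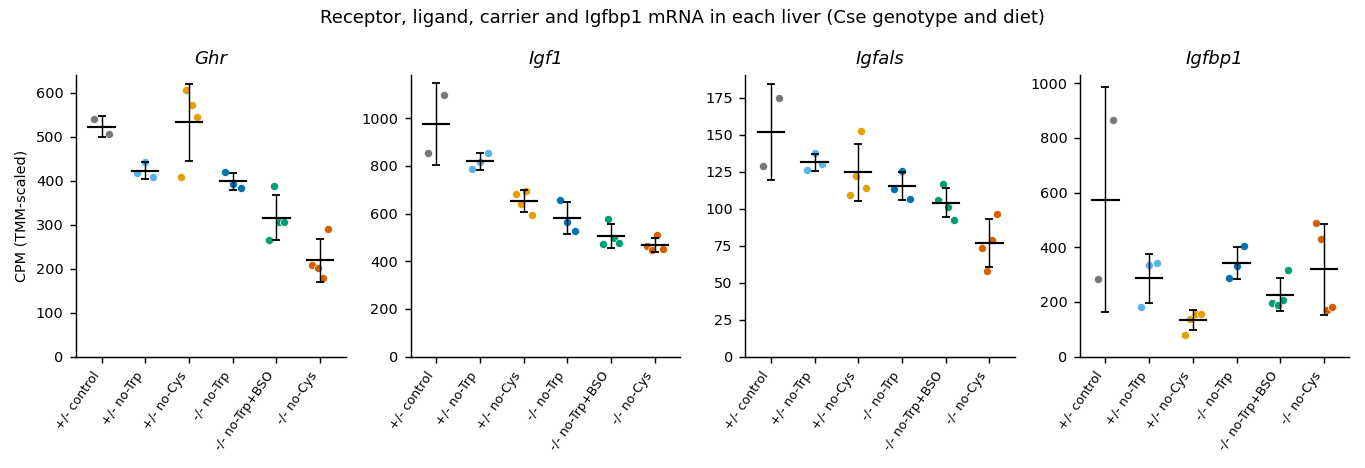
CPM of Ghr, Igf1, Igfals and Igfbp1 in each liver, by Cse genotype and diet, with 1 point per liver and the group mean ± SD as bars. Ghr and Igfals are lowest in Cse-/- no-Cys livers, Igf1 steps down from Cse+/- control (975 CPM) to Cse-/- no-Cys (468 CPM), and Igfbp1 is lowest in Cse+/- no-Cys livers.

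Igfbp1 (ENSMUSG00000020429, chromosome 11, plus strand, 7197782 to 7202546) encodes the binding protein that insulin represses and fasting raises. Insulin acts on this gene through FOXO transcription factors, which bind an insulin response element with the core letters CAAAACA. The 245 bases before the first exon base are shown because Igfbp1 was the only member called higher in Cse-/- than in Cse+/- no-Cys livers. They are from RefSeq on GRCm38.p6, plus strand, chr11:7197537-7197781, with the core in capitals 108 bases before the RefSeq transcript start.
Igfbp1 upstream: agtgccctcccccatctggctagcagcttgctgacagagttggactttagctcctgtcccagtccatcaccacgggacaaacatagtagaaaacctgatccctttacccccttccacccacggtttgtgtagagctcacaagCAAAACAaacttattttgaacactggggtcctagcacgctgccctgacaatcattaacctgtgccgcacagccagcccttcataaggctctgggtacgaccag
On either strand, CAAAACA occurs in 6.28% of the 32851 windows and in 1 of the 15 windows of the members, this one. The other FOXO letters searched, GTAAACA, occur in 3.65% of windows and in 1 member window, that of Igfals. TGATGCAA, the pattern bound by the stress factor ATF4, occurs in 0.895% of windows and in 0 of the 15 member windows.

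On the no-Cys diet Igfbp1 was at 80.2, 139, 155 and 157 CPM in Cse+/- livers. Cse-/- livers held 491, 432, 172 and 183 CPM, which is above all Cse+/- livers but in a pair of high and a pair of lower values. The group means were 133 ± 36.2 and 319 ± 166 CPM (SD, n = 4 each). Igfbp1 rose 2.40-fold in this comparison (log2 fold change 1.26, SE 0.36, edgeR adjusted p = 0.0143). The call rested on each of the high livers, and ended without av05 (log2 fold change 0.99, edgeR adjusted p = 0.0619) or av06 (1.08, edgeR adjusted p = 0.0511).

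Set beside the other groups, the Cse+/- no-Cys livers were the low ones. Igfbp1 was at 282 and 866 CPM in the control livers, 183, 335 and 342 CPM in Cse+/- no-Trp, 289, 331 and 404 CPM in Cse-/- no-Trp and 196, 190.2, 205 and 315 CPM in Cse-/- livers with BSO. Every one of these 12 livers was above all 4 Cse+/- no-Cys livers. Against the control diet Igfbp1 was 4.31-fold lower in Cse+/- no-Cys livers (log2 fold change -2.11, SE 0.41, edgeR adjusted p = 0.0117). That value depended on the control liver av22 with 866 CPM, and without it the log2 fold change was -1.09 (edgeR adjusted p = 0.519). Against the no-Trp diet the difference in Cse+/- mice was -1.11 (SE 0.38) and was not called (edgeR adjusted p = 0.0748), although a fit of the compared groups alone (edgeR adjusted p = 0.0433) and one without a filter on low counts (edgeR adjusted p = 0.00659) called it. Igfbp1 was not called between genotypes without tryptophan (log2 fold change 0.25, SE 0.40, edgeR adjusted p = 0.787), between the no-Cys and no-Trp diets in Cse-/- mice (-0.10, SE 0.38, edgeR adjusted p = 0.904) or as an interaction (1.01, SE 0.54, edgeR adjusted p = 0.309). The genes nearest to Igfbp1 by log2 CPM over the 20 livers were Mrps23 (Pearson r 0.847), Ubp1 (0.839) and Gm14584 (0.767), given as a description.

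Igfbp2 (ENSMUSG00000039323, chromosome 1, plus strand, 72824503 to 72852474) encodes a binding protein that liver secretes in large amounts. It was at 1080.4, 886, 1231 and 1476 CPM in Cse+/- no-Cys livers and at 751, 731, 816 and 708 CPM in Cse-/- no-Cys livers. The latter were all below the former, and they were also more alike, with an SD of 46.8 against 249 CPM (n = 4 each). Igfbp2 was 1.55-fold lower in Cse-/- mice (log2 fold change -0.64, SE 0.18, edgeR adjusted p = 0.0129), a call that ended without av04, the highest Cse+/- liver (edgeR adjusted p = 0.0528).

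Cse-/- no-Trp livers spread widely, with 1474, 667 and 1179.8 CPM of Igfbp2, and av15 alone lay below the Cse-/- no-Cys range. The no-Cys and no-Trp diets therefore overlapped in Cse-/- mice and the difference was not called (log2 fold change -0.56, SE 0.19, edgeR adjusted p = 0.0630). It was called without av15 (log2 fold change -0.83, edgeR adjusted p = 0.00300) and by DESeq2 (DESeq2 adjusted p = 0.0307). With BSO the livers held 1054, 936, 1025 and 1148 CPM, above all Cse-/- no-Cys livers, but this was not called in the fit of all groups (log2 fold change 0.47, SE 0.18, edgeR adjusted p = 0.145). Of all genes tested, 12.7% did not overlap between these groups. In Cse+/- mice Igfbp2 did not pass the test between any of the 3 diets.

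Igfbp4 (ENSMUSG00000017493, chromosome 11, plus strand, 99041244 to 99054392), a binding protein that is cleaved by the protease PAPP-A to free IGF-1, was the steadiest member. All 20 livers lay between 2231 and 3015 CPM. It was lower on the no-Cys diet in Cse+/- mice, at 2231, 2242, 2365 and 2361 CPM, than on the no-Trp diet, at 2956, 2943 and 2623 CPM. Although these groups did not overlap, the difference was 1.24-fold (log2 fold change -0.30, SE 0.09) and just under the threshold (edgeR adjusted p = 0.0480). Leaving out any 1 of the 7 livers ended the call, with edgeR adjusted p of 0.0512 to 0.135. Between genotypes on no-Cys its log2 fold change was 0.10 (SE 0.09, edgeR adjusted p = 0.447).

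Cish (ENSMUSG00000032578, chromosome 9, plus strand, 107296026 to 107302784) encodes CIS, an early STAT5 target that binds the activated receptor and blocks its signal. Its exons share 740 bases with genes on the opposite strand (Gm17040 and Gm17041), and where counting ignores strand such reads cannot be told apart from those of Cish. At its RefSeq transcript start, TTCNNNGAA occurs in 2 copies side by side, which begin at bases 1 and 12 of the transcript, within annotated exon sequence. The stretch is shown because Cish varied most among the members. It lies at chr9:107296655-107296682, GRCm38.p6, plus strand, with both motifs in capitals.
Cish start: agttTTCCTGGAAagTTCTTGGAAatct
Socs2 (ENSMUSG00000020027, chromosome 10, minus strand, 95385362 to 95417180) encodes another inhibitor of the receptor, which in mice limits body growth.

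Cish was high in Cse+/- livers on the control diet, at 28.5 and 34.9 CPM, and on the no-Trp diet, at 52.5, 36.7 and 27.7 CPM. The Cse+/- no-Cys livers held 13.2, 7.34, 5.60 and 3.61 CPM. In Cse-/- mice it was at 8.20, 6.01, 8.25 and 8.85 CPM on the no-Cys diet, 3.37, 11.3 and 6.55 CPM on the no-Trp diet and 9.61, 12.3, 8.56 and 11.6 CPM with BSO. Every Cse+/- control and no-Trp liver was thus above every other liver. Cish was 5.28-fold lower on the no-Cys than on the no-Trp diet in Cse+/- mice (log2 fold change -2.40, SE 0.34, edgeR adjusted p = 5.22e-04). The liver with 52.5 CPM was av17, and without it the log2 fold change was -2.13 (edgeR adjusted p = 0.00374). Against the control diet it was 4.31-fold lower (log2 fold change -2.11, SE 0.37, edgeR adjusted p = 0.00590), a call that ended without the control liver av22 at a similar size (-1.96, edgeR adjusted p = 0.124).

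Between genotypes on the no-Trp diet, Cish was 5.58-fold lower in Cse-/- livers (log2 fold change -2.48, SE 0.37, edgeR adjusted p = 0.00155). Without cysteine, where both genotypes were low, the difference in log2 was 0.09 (SE 0.34, edgeR adjusted p = 0.873). The genotype effect differed between the diets, with an interaction of 2.57 (SE 0.50, edgeR adjusted p = 0.00618). Within Cse-/- mice the diets did not separate Cish: its log2 fold change was 0.17 between no-Cys and no-Trp (SE 0.36, edgeR adjusted p = 0.808) and 0.59 on adding BSO (SE 0.35, edgeR adjusted p = 0.492).

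Socs2 followed a similar outline with more scatter. It was at 128, 103 and 109.8 CPM in Cse+/- no-Trp livers and at 53.3, 27.5, 45.6 and 22.6 CPM in Cse+/- no-Cys livers, without overlap. The difference in Cse+/- mice was 3.05-fold (log2 fold change -1.61, SE 0.39, edgeR adjusted p = 0.0162), and the call was lost without av02 (edgeR adjusted p = 0.0553). The control livers were far apart, at 32.3 CPM (av21) and 170.0 CPM (av22). Against them the Cse+/- no-Cys livers gave -1.44 (SE 0.43, edgeR adjusted p = 0.0817), which turned to 0.20 without av22 (edgeR adjusted p = 0.947) and to -2.20 without av21 (edgeR adjusted p = 0.00382).

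In Cse-/- mice Socs2 was at 40.4, 23.0 and 39.2 CPM on the no-Trp diet, all below the Cse+/- no-Trp livers. It was 3.31-fold lower there (log2 fold change -1.73, SE 0.42, edgeR adjusted p = 0.0344), but leaving out any 1 of the 6 livers put the edgeR adjusted p between 0.0505 and 0.151. On the no-Cys diet Cse-/- livers held 36.1, 19.9, 33.4 and 29.0 CPM, within the Cse+/- no-Cys range apart from the lowest liver (log2 fold change -0.32, SE 0.37, edgeR adjusted p = 0.562). With BSO they held 43.8, 73.6, 43.7 and 37.8 CPM, above all Cse-/- no-Cys livers but not called (log2 fold change 0.74, SE 0.37, edgeR adjusted p = 0.266). Such a gap between these groups was seen for 12.7% of all genes tested. The interaction for Socs2 was 1.40 (SE 0.56, edgeR adjusted p = 0.163). By log2 CPM over the 20 livers, the nearest genes to Socs2 were Zfp598 (Pearson r 0.884), Rrn3 (0.872) and Ikzf4 (0.860), again as a description.

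**Figure D3:**
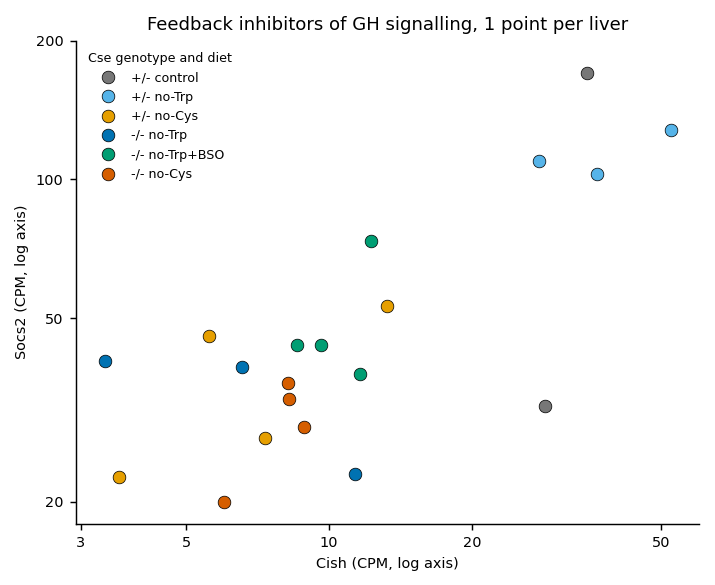
Socs2 CPM against Cish CPM, both on log axes, with 1 point per liver coloured by Cse genotype and diet. The Cse+/- no-Trp livers and 1 control liver lie at the upper right, the other control liver (28.5 CPM of Cish, 32.3 CPM of Socs2) lies apart below them, and all other livers have at most 13.2 CPM of Cish.

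**Figure D4:**
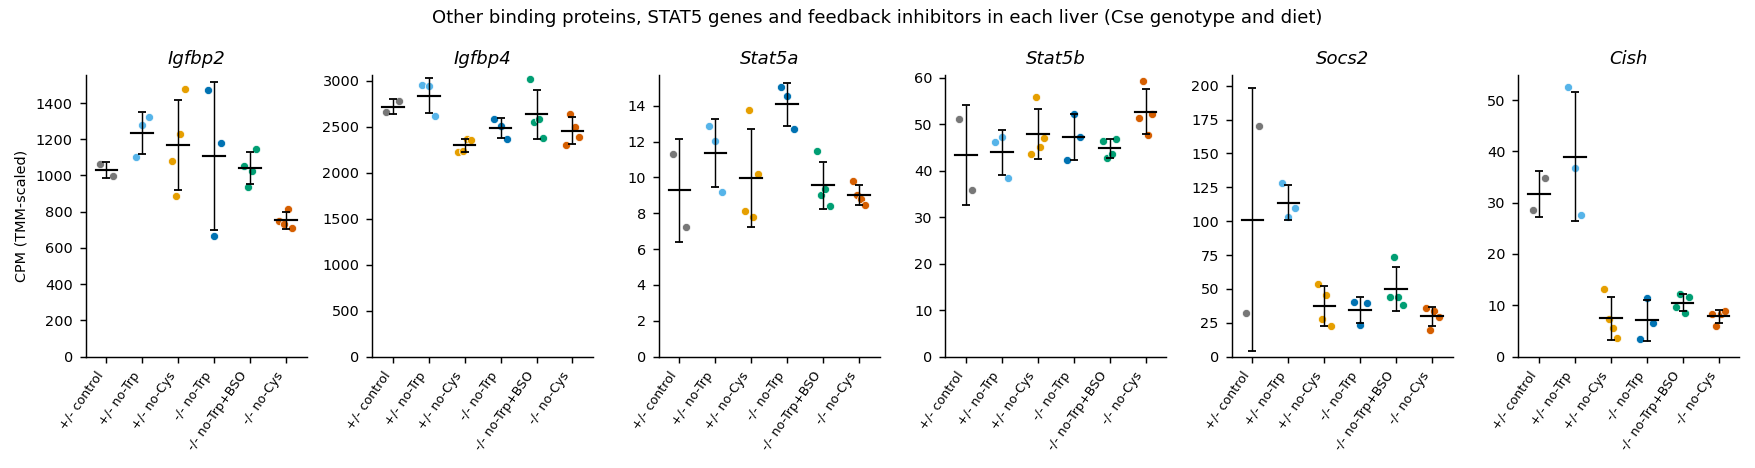
CPM of Igfbp2, Igfbp4, Stat5a, Stat5b, Socs2 and Cish in each liver, by Cse genotype and diet, with 1 point per liver and the group mean ± SD as bars. Igfbp2 is low in all Cse-/- no-Cys livers, Igfbp4 and Stat5b vary little, and Cish is high only in Cse+/- control and Cse+/- no-Trp livers.

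The other genes of the pathway were taken as 4 lists, to be read against the 11.6% of all genes called higher and 12.2% called lower between genotypes on the no-Cys diet. Of 11 genes of growth hormone receptor signalling, 2 were lower and 0 higher in Cse-/- than Cse+/- livers on the no-Cys diet, with a median log2 fold change of -0.05. Jak2, the kinase bound to the receptor, was at 17.0, 15.7, 16.6 and 15.0 CPM in Cse+/- livers and at 13.3, 11.5, 11.4 and 10.6 CPM in Cse-/- livers, without overlap (log2 fold change -0.46, SE 0.13, edgeR adjusted p = 0.0160).

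Of 4 IGF ligand and receptor genes, 1 was higher and 1 lower in that comparison. Igf2r, the receptor that clears IGF-2, was at 39.2, 45.4, 44.2 and 42.3 CPM in Cse+/- and 62.0, 53.5, 49.0 and 55.3 CPM in Cse-/- no-Cys livers, without overlap (log2 fold change 0.36, SE 0.09, edgeR adjusted p = 0.00798). Insr, the insulin receptor, was lower with overlap (-0.38, SE 0.11, edgeR adjusted p = 0.0166). Of 10 other binding proteins and regulators of IGF availability, 6 had enough counts for a test. Igfbp5 (-0.58, SE 0.19, edgeR adjusted p = 0.0296) and Igfbp7 (-0.38, SE 0.12, edgeR adjusted p = 0.0218) were lower, and the 4 others were not called. Of 8 genes of insulin and IGF signalling to FOXO, 1 was lower, Pik3r1, a regulatory subunit of PI3K (-0.46, SE 0.13, edgeR adjusted p = 0.0181). The median log2 fold changes of these 3 lists were 0.00, -0.33 and -0.01.

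Between genotypes on the no-Trp diet, Ptpn1, the phosphatase PTP1B, was lower in Cse-/- livers (log2 fold change -0.60, SE 0.15, edgeR adjusted p = 0.0374), and Igf2r (0.40, SE 0.11, edgeR adjusted p = 0.0470) and the insulin receptor substrate Irs1 (1.23, SE 0.31, edgeR adjusted p = 0.0381) were higher. In all, 1 of 11, 1 of 4, 0 of 6 and 1 of 8 genes of the lists were called, against 2.64% of all genes. DESeq2 called 6 of the 29 genes tested of the 4 lists together, against edgeR's 3, and 4.9% of all genes. Of the 61-base words of Irs1, 30.4% occur in other genes, chiefly Gm9747 on the opposite strand. Without av17 none of Ptpn1, Igf2r and Irs1 was called (edgeR adjusted p of 0.0856 to 0.130), and without both av14 and av17 Irs1 alone was called (edgeR adjusted p = 0.0408). Ptpn1 was also not called without av14 (edgeR adjusted p = 0.0883). Within Cse+/- mice, 3 of 11 receptor signalling genes were lower on the no-Cys than on the no-Trp diet, against 3.41% of all genes called lower and 8.04% called. Socs3, a feedback inhibitor induced by cytokines, was at 13.7, 10.4, 8.17 and 8.63 CPM on the no-Cys diet and at 35.9, 20.9 and 17.8 CPM on the no-Trp diet (log2 fold change -1.27, SE 0.25, edgeR adjusted p = 0.00513). Stat3, which carries the signal of interleukin-6, was lower as well (-0.96, SE 0.19, edgeR adjusted p = 0.00495), and so was Ptpn1, named after its value was seen (-0.66, SE 0.14, edgeR adjusted p = 0.00826). These 3 genes, like Socs2 and Cish, did not overlap between the 2 diets. The highest liver was av17 for all 3, and without it they remained called at log2 fold changes of -0.93 for Socs3, -0.73 for Stat3 and -0.42 for Ptpn1 (edgeR adjusted p of 0.0309 to 0.0460). Irs1 was higher (1.16, SE 0.30, edgeR adjusted p = 0.0231), 1 of 8 genes of its list, but was not called without av17 (edgeR adjusted p = 0.0787), and edgeR called 0 of the 4 ligand and receptor genes and 0 of the 6 other regulators.

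Within Cse-/- mice, Sirpa, a membrane protein that JAK2 phosphorylates, was lower on the no-Cys than on the no-Trp diet (log2 fold change -0.41, SE 0.13, edgeR adjusted p = 0.0443), as was Igfbp5 (-0.61, SE 0.19, edgeR adjusted p = 0.0499). Those were 1 of 11 and 1 of 6 genes of their lists, against 10.4% of all genes called, and neither was called without av14 (edgeR adjusted p = 0.0567 and 0.138). Of the 29 genes tested, edgeR called the interaction for 1, Socs3 (1.28, SE 0.36, edgeR adjusted p = 0.0473), against 4.36% of all genes, and DESeq2 for 3, against 7.17%. Without av17 the call of Socs3 ended (0.93, edgeR adjusted p = 0.125). In the comparisons with the control diet and with BSO, edgeR called 0 of the 29 genes tested of these lists. Those at an unadjusted p under 0.05 were 2 for no-Cys against control (16.6% of all genes), 8 for no-Trp against control (9.29%), 3 for adding BSO (13%) and 3 for BSO against no-Cys (20%). DESeq2 called 1 of the 29, in no-Trp against control, where it called 0.407% of all genes.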

How the data were processed

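Livers of 20 male mice were analysed by mRNA-seq with poly(A) selection. The authors deposited raw counts per Ensembl gene without normalization, made from reads aligned to GRCm38 with HISAT2 2.1.0 and counted with HTSeq 0.11.0, per the submitters' processing notes. The annotation release and strand setting are not given in the sources used here. Columns were tied to groups through the study's list of mice, and 1 of 21 columns, whose condition that list does not give, was not used. Symbols, positions and exon lengths came from GENCODE M21, which named 45229 of 46078 genes. Promoter windows (RefSeq, GRCm38.p6) run from 250 bases before to 50 after a transcript start.

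Counts were tested with the quasi-likelihood test of edgeR 4.0.16 (R 4.3.3): filterByExpr with a minimum count of 10 and a minimum total of 15, TMM scaling, a mean for each of 6 groups fitted to all 20 libraries, two-sided P values and Benjamini–Hochberg adjustment over 14759 genes. The standard error of a log2 fold change is its size divided by the square root of F. Library totals of 11785740 to 57986121 set the counting precision, and in 25 within-group pairs the libraries differed beyond counting noise (chi-square per gene of 9.60 to 64.2), so none was counted as a repeat. The scripts were tested on simulated data. Alternatives were DESeq2 1.42.0, RLE factors, other filters on low counts, a fit of the compared groups alone, a threshold of 0.01 and leaving out each library. Leaving out av14 and av17 together was chosen after seeing the data. Figures used Python 3.11.15 with matplotlib 3.10.9.

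The members and gene lists were chosen with earlier results of these data known. Named are all 10 members, the genes of 4 pathway lists that were called (up to 4 per list between genotypes on the no-Cys diet, up to 2 elsewhere, by size of change, with the exception of 1 gene of the receptor signalling list that is counted but not reported here and of Ptpn1 between the diets in Cse+/- mice, named after its value was seen), the 3 genes nearest to Igf1, Igfbp1 and Socs2 by Pearson r of log2 CPM (prior count 2), and Cth. Marker lists of liver and blood cell types, adipocytes and exocrine pancreas were checked.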

Additional observations from a re-analysis of the deposited data

Results flagged for a closer look

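The effect of genotype on Ghr differed between the no-Cys and no-Trp diets, with an interaction of -1.19 on the log2 scale (SE 0.22, edgeR adjusted p = 0.00436). The effect of genotype on Cish also differed between these diets, in the opposite direction, with an interaction of 2.57 (SE 0.50, edgeR adjusted p = 0.00618). Every setting tried kept both calls, including leaving out each library of the 4 groups in turn.

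A single liver stood far from the others of its group in 2 cases, both in Cse-/- mice on the no-Trp diet with BSO. Igfbp1 was at 315 CPM in av12, where the gap to the next liver took 0.879 of the group's range. Socs2 was at 73.6 CPM in av10, where that share was 0.831. Of the members' groups, 30 held enough livers for this check, and chance alone marks about 1 group in 20.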

How the results depend on the processing

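Under RLE factors every comparison kept its count of members called. At an adjusted p under 0.01 the count fell from 5 to 3 between genotypes on the no-Cys diet and from 3 to 1 between genotypes on the no-Trp diet, between no-Cys and control in Cse+/- mice, and between no-Cys and no-Trp in each genotype. DESeq2 called 5 members instead of 3 between no-Cys and no-Trp in Cse-/- mice, adding Igf1 and Igfbp2. For no-Trp with BSO against no-Cys in Cse-/- mice, where edgeR called 0, DESeq2 called 2 (Ghr and Igfals), leaving low counts unfiltered 2 (the same 2), keeping genes with a mean of at least 1 CPM 1 (Ghr), and a fit of only the groups compared 1 (Igfbp2). Leaving out 1 library at a time gave 4 to 5 members between genotypes on the no-Cys diet, 1 to 2 between genotypes on the no-Trp diet, 0 to 4 for no-Cys against control in Cse+/- mice (0 without av22), 1 to 2 for no-Cys against no-Trp in Cse+/- mice (1 without av02), 2 to 3 for no-Cys against no-Trp in Cse-/- mice, 2 to 3 for the interaction, and 0 to 2 for BSO against no-Cys (2 without av08). Socs2 between no-Cys and control in Cse+/- mice went from -1.44 to 0.20 without av22 (edgeR adjusted p = 0.947) and to -2.20 without av21, with 1 control liver left in each. Apart from calls that fewer samples or a stricter threshold removed by construction, the cause of these changes was not tested. No paired analysis was possible because the columns of the counts carry mouse numbers and not the replicate numbers of the labels, so the planned replicate block was not run. With 2 to 4 livers a group, and 2 controls, differences that missed the threshold may be real.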
